A study of Mus musculus with 30 samples.

Results

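Livers of mice that carry human CAR and PXR in place of the mouse receptors (hCAR/hPXR) were compared with wild type livers, all from mice dosed with corn oil only. The comparison rested on 6 arrays, 3 per genotype, out of 30 arrays in the series, and was chosen by the sample labels alone. All mice were adult males on a C57BL/6J background, as the protocol states. Both groups received corn oil, the vehicle, for 3 days (0 mg/kg of any compound), and the livers were taken 1 day later. Further groups of 3 arrays served for reference: CARko/PXRko livers (both receptors deleted) and PXRko livers (PXR deleted) under corn oil, and wild type and hCAR/hPXR livers after oral 1,4-dichlorobenzene (DCB, 600 mg/kg daily) or cyproterone acetate (CPA, 160 mg/kg daily). The design states 5 mice per group, and the labels do not say that each array is a separate mouse, so p-values measure only the spread between these samples, which may be technical. No genotype in the labels comes with a promoter, a founder line or the way the human genes were put in. The array carries mouse probes, so the human receptor transcripts themselves were not read here.

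CAR (the product of Nr1i3) and PXR (the product of Nr1i2) are nuclear receptors of the hepatocyte. Drugs and other foreign compounds switch them on. They pair with RXR, bind DNA next to their target genes and raise the enzymes and transporters that clear such compounds, among them CYP2B, CYP2C and CYP3A members. The human and mouse receptors differ in the compounds they recognise, which is why humanized mice are used in drug safety work. The comparison under corn oil addresses what the exchange of receptors does to the liver before any activating compound is given.

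Signals are log2 units, so a difference of 1 is a doubling. Over 12795 genes tested with limma, 3 were called at an adjusted p under 0.05, which is 0.0234% of genes, and all 3 fell in hCAR/hPXR livers. They were Nr1i3, Nr1i2 and Tmem223, which encodes a small membrane protein of mitochondria. With the replicate number as a block the count stayed 3, and with that block and the 6 arrays alone it was 7 (0.0547%). Overlap of the arrays was counted as well. In 559 genes (4.37%) every hCAR/hPXR array was above every wild type array, and in 618 (4.83%) every one was below. At an unadjusted p under 0.05 there were 185 genes (1.45%). The median difference over all genes was 0.00, and 40 genes differed by 1 log2 unit or more. The 95% interval of a gene, before adjustment over all genes, reached 0.38 to either side at the median. A difference below that size was mostly not detectable with 3 arrays per group. The adjusted test left larger differences uncalled too, such as 1.58 for Hamp.

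**Figure D1:**
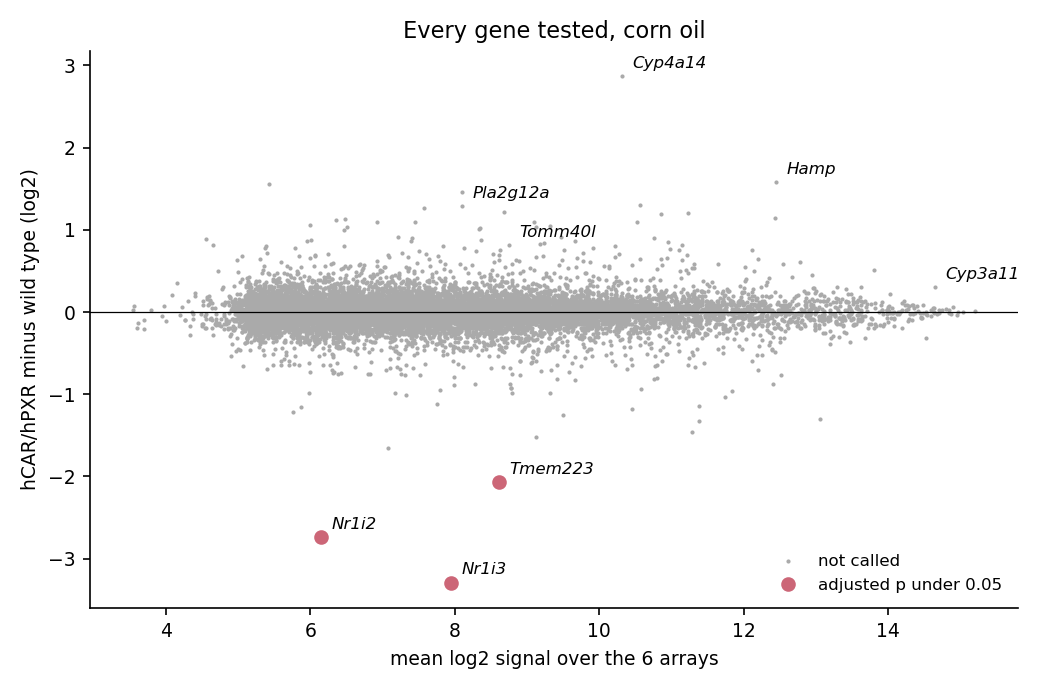
Each point is 1 of the 12795 genes tested, with its mean log2 signal over the 6 arrays on the x axis and the hCAR/hPXR minus wild type difference in log2 units on the y axis. The 3 called genes, Nr1i3 at -3.29, Nr1i2 at -2.74 and Tmem223 at -2.07, stand below the rest, and Cyp4a14 at 2.87 and Hamp at 1.58 stand above it without passing the test.

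The 6 arrays were close to each other. Their medians lay between 5.39 and 5.42, and their pairwise correlations over all probe sets between 0.9876 and 0.9947. The hCAR/hPXR arrays did not group by genotype on this measure. Each correlated most with a wild type array (0.9925, 0.9934 and 0.9934 for replicates 1, 2 and 3). The labelled tissue fitted its markers. Alb, which encodes serum albumin, read 15.20, 15.22 and 15.19 in wild type arrays and 15.24, 15.21 and 15.18 in hCAR/hPXR arrays, near the top of the scale. Of 7 hepatocyte markers tested, 0 were called and 0 had groups that did not overlap, and their median difference was 0.00. None of the 6 arrays carried the muscle transcripts seen elsewhere in the series, where 4 arrays of CARko/PXRko and PXRko livers rose by 2.08 to 7.99 on a list of muscle genes. Those 4 arrays enter the spread that all groups share, and the fits without them are given at the end.

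The mouse receptor genes fell in hCAR/hPXR livers. Nr1i3 read 9.32, 9.37 and 10.09 in wild type arrays and 6.44, 6.05 and 6.42 in hCAR/hPXR arrays. Every hCAR/hPXR array lay below every wild type array, and the difference was -3.29 ± 0.21 (SE, n = 3 per group, adjusted p = 4.41e-10). Nr1i2 read 7.79, 6.75 and 8.04 against 4.92, 4.62 and 4.80. Its difference was -2.74 ± 0.23 (adjusted p = 9.89e-08), although the wild type arrays spread more for this gene, with replicate 2 the lowest. A second probe set for Nr1i2 read 7.35, 7.09 and 7.31 in wild type and 4.33, 4.43 and 4.21 in hCAR/hPXR livers, which was a narrower wild type spread and a like difference of -2.93.

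The residual signals in hCAR/hPXR livers overlapped those of livers that lack the gene, so no fold is given for either receptor gene. For Nr1i3, the CARko/PXRko livers, which lack both receptors, read 6.51, 6.11 and 6.10, and hCAR/hPXR minus CARko/PXRko was 0.07 ± 0.21 with a 95% interval from -0.37 to 0.50. For Nr1i2, the CARko/PXRko arrays read 4.29, 4.70 and 4.76 and the PXRko arrays 4.39, 4.71 and 4.33, which overlapped the hCAR/hPXR arrays. Nr1i2 in hCAR/hPXR livers differed from CARko/PXRko livers by 0.20 ± 0.23 (interval -0.28 to 0.68) and from PXRko livers by 0.30 ± 0.23 (interval -0.18 to 0.78). PXRko livers keep mouse CAR, and there Nr1i3 read 10.09, 9.58 and 9.73, so that hCAR/hPXR livers fell by 3.49 against them (adjusted p = 2.38e-10).

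**Figure D2:**
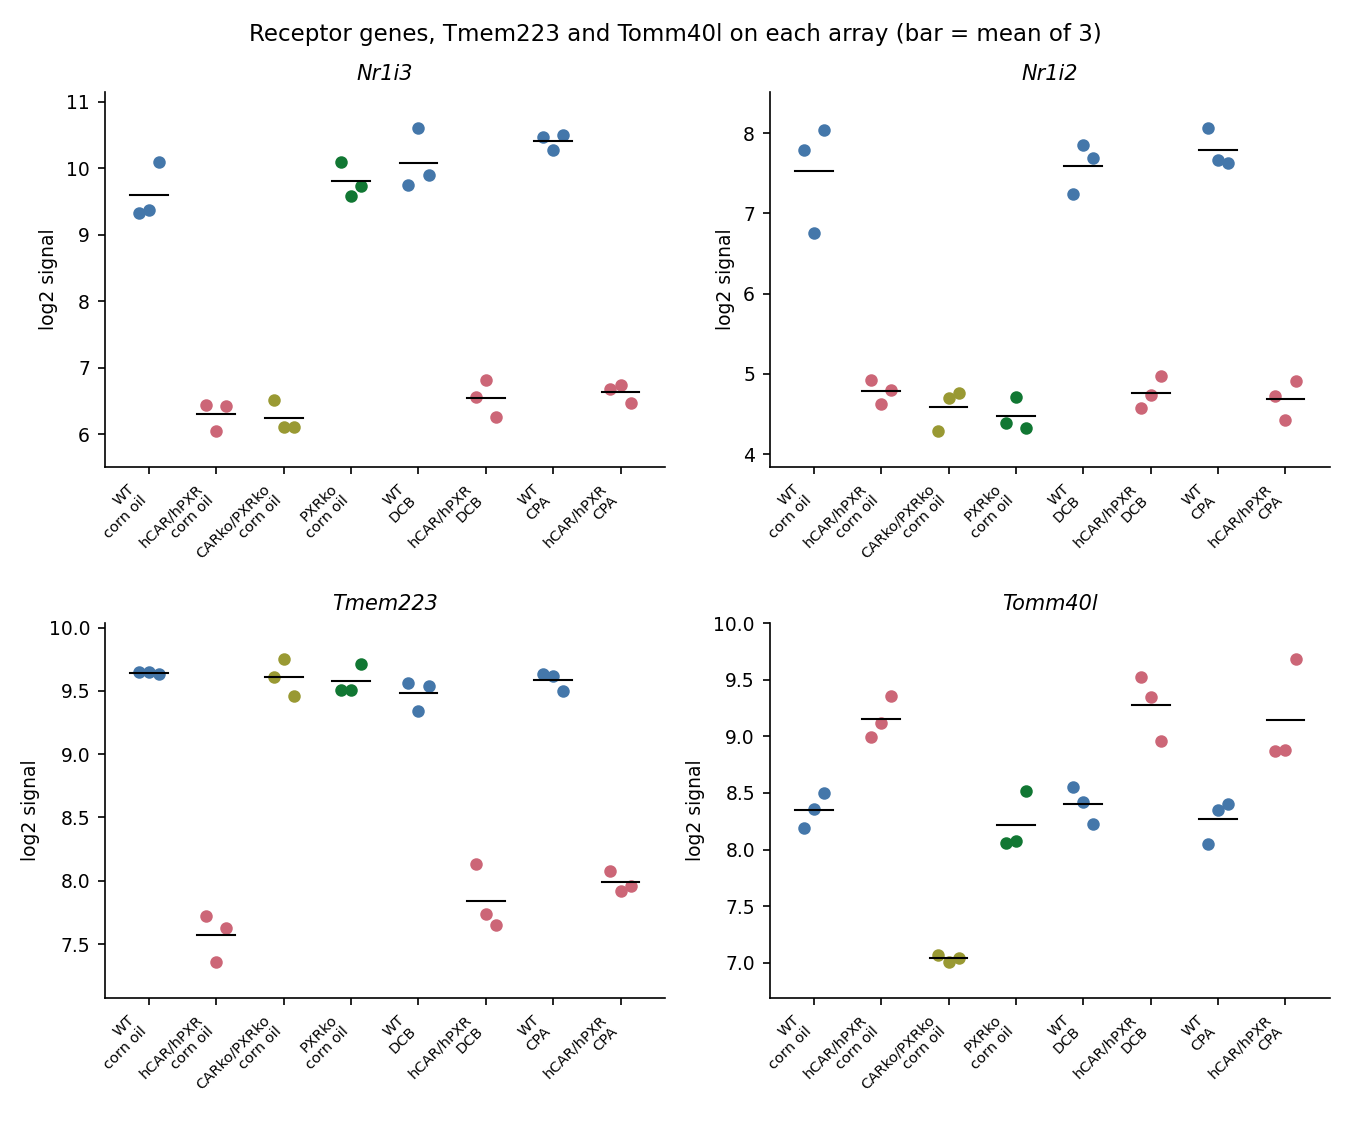
Log2 signal of 4 genes on each array, with 3 arrays per group as points and their mean as a bar, for 4 genotypes under corn oil and for wild type and hCAR/hPXR under DCB and CPA. Nr1i3 and Nr1i2 in hCAR/hPXR livers overlap the CARko/PXRko arrays under corn oil, and Tmem223 is low only in the hCAR/hPXR groups shown. Tomm40l is highest there on the brighter probe set, which is the one drawn, while its dimmer probe set is lower than wild type under corn oil.

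Tmem223, the third called gene, read 9.65, 9.65 and 9.63 in wild type arrays and 7.72, 7.36 and 7.63 in hCAR/hPXR arrays, a difference of -2.07 ± 0.13 (adjusted p = 4.41e-10), or 4.21 times lower. Unlike the receptor genes it was not low in the knockouts. CARko/PXRko arrays read 9.61, 9.75 and 9.46 and PXRko arrays 9.51, 9.51 and 9.71. The hCAR/hPXR level fell by 2.03 against CARko/PXRko (adjusted p = 8.26e-10) and by 2.01 against PXRko (adjusted p = 5.32e-10). Against CARko/PXRko livers 2 genes were called in all (0.0156%), Tmem223 and Tomm40l, and against PXRko livers 2 (0.0156%), Tmem223 and Nr1i3. A single probe set reads Tmem223, so no second measurement of the transcript was at hand. In the RefSeq gene order, 16 of the neighbours of Tmem223 within 10 measured genes on either side were tested. None was called, and their differences ran from -0.17 to 0.41. Of these neighbours, 2 had all hCAR/hPXR arrays higher and 0 lower, against 4.37% and 4.83% of all genes, and counts this small were not tested.

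Tomm40l, which encodes a channel-forming protein of the outer mitochondrial membrane, is the gene next to Nr1i3. It read 8.19, 8.36 and 8.50 in wild type and 8.99, 9.12 and 9.36 in hCAR/hPXR arrays. The groups did not overlap, and the difference of 0.81 ± 0.20 had an unadjusted p of 0.000416 and did not pass the test over all genes (adjusted p = 0.761). CARko/PXRko livers stood on the other side of wild type, with 7.07, 7.01 and 7.04, and hCAR/hPXR exceeded them by 2.12 ± 0.20 (adjusted p = 8.74e-07). A second, dimmer probe set went the other way. It read 4.87, 5.35 and 4.97 in wild type and 3.77, 4.02 and 4.36 in hCAR/hPXR arrays, and 3.92, 4.02 and 4.00 in CARko/PXRko arrays. The difference was -1.02 ± 0.17, with an unadjusted p of 2.96e-06 by limma fitted to all probe sets. In that fit the brighter probe set had an unadjusted p of 0.000358. On the 6 arrays compared, the dimmer one lay under the array medians of 5.39 to 5.42. The probe sets of Tomm40l therefore disagree on the direction at this locus, where the annotated spans of Nr1i3 and Tomm40l overlap.

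Of 17 neighbours of Nr1i3 tested, 0 were called, 2 had all hCAR/hPXR arrays higher (Tomm40l and Fcer1g, a subunit of antibody receptors) and 1 lower (Ppox, an enzyme of heme synthesis). Their differences ran from -0.20 to 1.12, the last for Pcp4l1 on the other side of Nr1i3, singled out after its value was seen, whose groups overlapped. Around Nr1i2, 14 neighbours were tested and their differences ran from -0.20 (Pla1a) to 0.23 (Popdc2). Of these, 0 were called, 2 had all hCAR/hPXR arrays higher and 1 lower. Over all genes, 4.37% were higher and 4.83% lower without overlap. The small counts around Nr1i3 and Nr1i2 were not tested against these shares.

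The same genotypes were compared again in other arrays, which enter the corn oil comparison only through the shared error estimate, after 1,4-dichlorobenzene (DCB, labelled 3 days) or cyproterone acetate (CPA, labelled 6 days in both genotypes). All 3 genes were called again, in the same direction. Nr1i3 fell by 3.54 under DCB (adjusted p = 1.81e-10) and by 3.78 under CPA (adjusted p = 4.09e-11). Nr1i2 fell by 2.84 (adjusted p = 4.99e-08) and by 3.10 (adjusted p = 8.01e-09). Tmem223 read 9.56, 9.34 and 9.54 in wild type and 8.13, 7.74 and 7.65 in hCAR/hPXR arrays under DCB, and 9.63, 9.62 and 9.50 against 8.08, 7.92 and 7.96 under CPA. Its level fell by 1.64 (adjusted p = 3.68e-08) and by 1.60 (adjusted p = 3.44e-08). In all, 5 genes were called under DCB (0.0391%) and 35 under CPA (0.274%). On its brighter probe set, Tomm40l was 0.88 higher under either compound (unadjusted p = 0.000173 and 0.000169), again without passing the test (adjusted p = 0.124 and 0.0566).

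Among the 1177 genes whose groups did not overlap under corn oil, 58% differed in the same direction under DCB, against 53.1% of all genes tested. Under CPA the shares were 52.2% and 51.5%. The change of the genotype difference was tested directly. It was called for 0 genes between DCB and corn oil (398, or 3.11%, at an unadjusted p under 0.05) and for 8 genes between CPA and corn oil (0.0625%).

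Enzymes and transporters that CAR and PXR control were read next, starting with the promoters of the 3 such genes that were among the 12 with the smallest p on the higher side. The sequences are from RefSeq (build GRCm38.p6) and run from 250 bases before to 50 bases after the gene start, 5′ to 3′ on the gene's strand. Capitals mark matches on either strand to AGGTCA or AGTTCA, the half-sites to which the receptors' dimers bind in pairs. Cyp3a11 lies at chr5:145879805-145880104 on the minus strand and has matches starting at -162 and -142 from the start. Cyp2c29 lies at chr19:39286835-39287134 on the plus strand with a match at -154, and Ces2a at chr8:104733753-104734052 on the plus strand with a match at -226.
Cyp3a11: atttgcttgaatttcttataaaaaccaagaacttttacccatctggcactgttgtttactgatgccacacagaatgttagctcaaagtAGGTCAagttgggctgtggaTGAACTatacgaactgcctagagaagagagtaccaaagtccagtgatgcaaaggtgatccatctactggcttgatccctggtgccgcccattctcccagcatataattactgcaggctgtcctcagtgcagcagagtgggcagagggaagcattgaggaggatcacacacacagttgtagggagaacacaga
Cyp2c29: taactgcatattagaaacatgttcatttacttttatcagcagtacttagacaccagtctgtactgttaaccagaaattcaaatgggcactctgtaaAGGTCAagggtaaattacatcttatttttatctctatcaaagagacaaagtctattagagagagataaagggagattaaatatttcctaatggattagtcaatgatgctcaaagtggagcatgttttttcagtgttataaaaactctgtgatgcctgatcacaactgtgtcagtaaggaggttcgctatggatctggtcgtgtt
Ces2a: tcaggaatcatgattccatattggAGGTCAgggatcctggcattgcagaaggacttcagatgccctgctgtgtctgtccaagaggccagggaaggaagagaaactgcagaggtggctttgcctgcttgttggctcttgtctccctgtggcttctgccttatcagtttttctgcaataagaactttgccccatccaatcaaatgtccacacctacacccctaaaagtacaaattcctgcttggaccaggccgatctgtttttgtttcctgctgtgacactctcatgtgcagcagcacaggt
Either half-site occurred in 27.6% of 27025 promoters of this length, and in 11 of 30 promoters of the receptor-responsive lists. The search counted a match of 6 bases, did not require a pair, and did not cover the distal enhancers.

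No receptor-responsive gene was called in hCAR/hPXR livers at rest. All hCAR/hPXR arrays lay above wild type for 3 of 4 CYP3A genes, 3 of 11 CYP2B and CYP2C genes and 7 of 18 other responsive genes, against 4.37% of all genes. Cyp3a11, the main CYP3A enzyme of mouse liver, read 14.42, 14.46 and 14.62 in wild type and 14.77, 14.80 and 14.82 in hCAR/hPXR arrays. The groups did not overlap, and the difference was 0.30 ± 0.09 (unadjusted p = 0.00336, adjusted p = 1). The gene sat close to the array maxima of 15.21 to 15.34, where differences are compressed. Cyp3a44 (0.65 ± 0.25) and Cyp3a25 (0.22 ± 0.12) also had all hCAR/hPXR arrays higher, while Cyp3a13 overlapped (0.12 ± 0.30). The median of the 4 CYP3A genes was 0.26, against 0.00 over all genes.

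In the CYP2B and CYP2C list, 3 of 11 genes tested were higher without overlap, and the median was 0.02. Cyp2c29, an abundant CYP2C enzyme, read 13.31, 13.69 and 13.65 in wild type and 14.00, 14.03 and 14.13 in hCAR/hPXR arrays (0.51 ± 0.15, adjusted p = 1). Cyp2c55 read 7.86, 7.81 and 7.85 against 8.73, 9.24 and 8.61. The difference was 1.02 ± 0.51, and the arrays under DCB, which enter the shared error, had SDs of 1.08 in wild type and 1.03 in hCAR/hPXR livers (n = 3 each). Cyp2c23, a maker of signalling epoxides from arachidonic acid, stood 0.43 ± 0.29 higher.

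Cyp2b10, the usual readout of CAR activity, depended on the probe set. The brightest one read 5.29, 5.58 and 6.27 in wild type and 6.97, 6.01 and 6.24 in hCAR/hPXR arrays, which overlapped (0.69 ± 0.77). A second read 3.72, 4.36 and 3.99 against 6.63, 5.20 and 4.89, and the third 4.57, 4.58 and 4.08 against 7.14, 5.25 and 5.37. On these the groups did not overlap, with differences of 1.55 ± 0.94 and 1.51 ± 0.99. On all 3 probe sets hCAR/hPXR replicate 1 was the highest of the 6 arrays. On the brightest probe set, single hCAR/hPXR arrays under DCB and CPA read between 11.95 and 12.90, above all 3 of its corn oil readings. Array probes can bind close relatives in the Cyp2b, Cyp2c and Cyp3a families, so members of these families are less certain than single-copy genes.

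Of 18 other CAR and PXR responsive genes tested, 7 were higher without overlap, 1 was lower, 0 were called, and the median was 0.18. Ces2a, a carboxylesterase, read 12.34, 12.53 and 12.55 in wild type and 12.89, 13.21 and 13.16 in hCAR/hPXR arrays (0.61 ± 0.20). Abcc3, an exporter of conjugates into blood, read 10.56, 10.54 and 10.67 against 11.36, 11.68 and 11.05 (0.77 ± 0.29). Ephx1, the microsomal epoxide hydrolase, was 0.59 ± 0.21 higher, and its groups touched at 12.72. Nr0b2, which encodes the repressor SHP, was 1.09 ± 0.55 higher, with replicate 2 at 10.44 well above the other hCAR/hPXR arrays at 8.83 and 9.66. CARko/PXRko arrays also all lay above wild type for Cyp3a11 (14.65, 14.79 and 14.74), Cyp2c29 (13.85, 13.99 and 14.08), Cyp2c55, Ephx1 and Nr0b2. They overlapped wild type for Ces2a (13.16, 12.29 and 13.25), Abcc3 (10.69, 10.17 and 10.81), Cyp2c23, Cyp3a44, Cyp3a25, Cyp3a13 and the brightest Cyp2b10 probe set. None of these genes was called between hCAR/hPXR and CARko/PXRko livers.

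Under DCB the medians were 0.42 for CYP3A genes and 0.30 for the other responsive genes. Under CPA the medians were -0.18 and -0.12. Cyp2b10 was 2.91 ± 0.77 higher in hCAR/hPXR livers under DCB and -0.46 ± 0.77 under CPA, neither called (adjusted p = 0.214 and 0.915). The test of the change in genotype difference from corn oil to CPA called Cyp2c55 alone among the members of these 3 lists (-4.46 ± 0.72, adjusted p = 0.00872). Ces2a moved the same way by -1.38 ± 0.28 without being called (adjusted p = 0.0572).

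**Figure D3:**
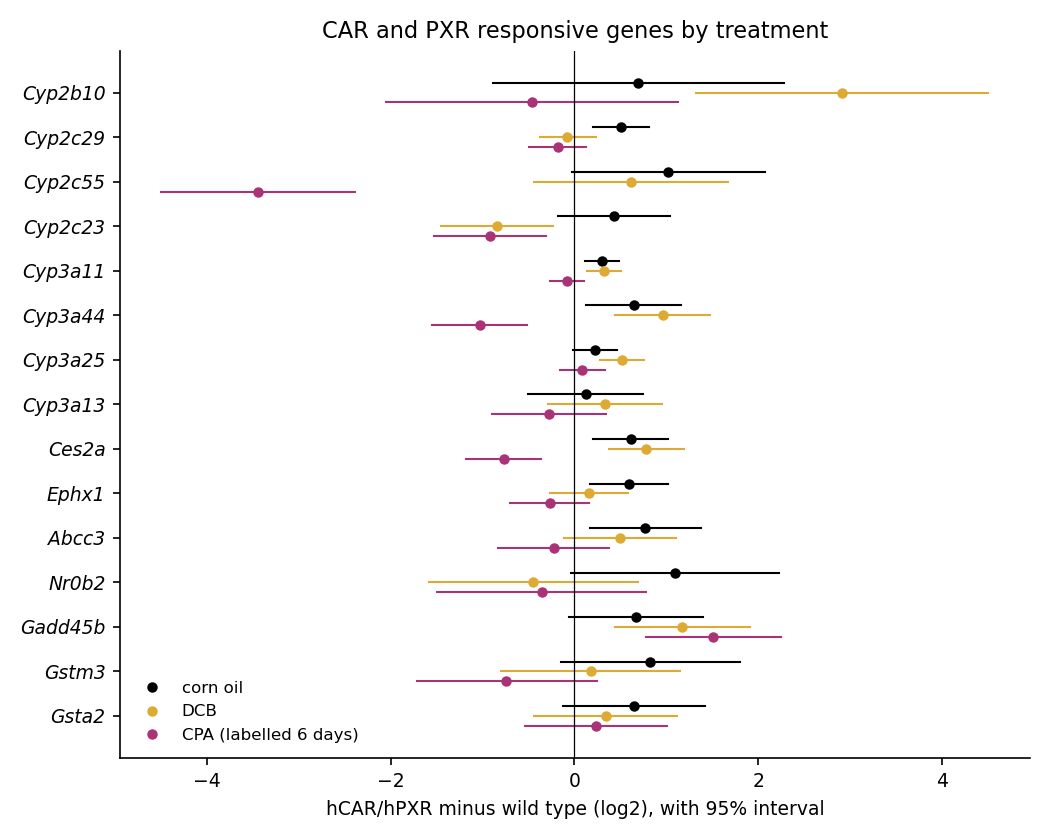
Difference between hCAR/hPXR and wild type in log2 units (points, with 95% intervals as lines) for 15 CAR and PXR responsive genes under corn oil, DCB and CPA. All 15 points lie above 0 under corn oil, from 0.12 for Cyp3a13 to 1.09 for Nr0b2. Apart from Cyp2b10, Cyp3a13, Gadd45b, Gstm3 and Gsta2, the genes drawn were picked for a small p under corn oil, and the last 3 fall outside the rule for named genes. Members with a lower mean, 5 of 11 CYP2B and CYP2C genes and 5 of 18 other responsive genes, are not drawn, so this direction is a description. Cyp2c55 falls to -3.44 under CPA.

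Other lists of drug clearance followed. Of 32 other phase I enzymes, 2 were higher and 1 lower without overlap (6.25% and 3.12%, against 4.37% and 4.83% of all genes). Their median was 0.00. Cyp2g1 was the member with the smallest p, at 6.75, 6.64 and 5.73 in wild type and 7.53, 7.21 and 7.67 in hCAR/hPXR arrays (1.10 ± 0.44). Cyp17a1, a steroid hydroxylase, stood at -1.12 ± 0.69, also without overlap. Of 31 conjugation enzymes, 1 was higher and 2 lower without overlap (3.23% and 6.45%), with a median of -0.05. Tpmt, which methylates thiopurines, read 9.90, 9.97 and 9.96 against 9.30, 9.27 and 9.41 (-0.62 ± 0.27). Of 16 transporters, 1 was higher and 2 were lower without overlap (6.25% and 12.5%). The higher one was Abcb4, the phospholipid exporter of bile (0.29 ± 0.25). The lower ones were Slco2b1 (-0.51 ± 0.34) and the bile acid importer Slc10a1 (-0.26 ± 0.24). None of these lists had a called member.

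Of 15 bile acid genes, 1 was higher and 3 lower without overlap (6.67% and 20%, against 4.37% and 4.83% of all genes), with a median of -0.03 and 0 called. Nr1h4, the bile acid receptor FXR, read 11.08, 10.94 and 10.89 in wild type and 10.66, 10.77 and 10.63 in hCAR/hPXR arrays (-0.28 ± 0.24). Cyp7a1, the rate-limiting enzyme of bile acid synthesis and singled out after its value was seen, spread over 11.85, 11.28 and 10.25 against 11.21, 10.32 and 9.92, and the difference of -0.65 ± 0.67 was within that spread. Among 14 genes under the antioxidant factor NRF2, 3 were higher and 3 lower without overlap (21.4% each), with a median of 0.04. Osgin1 was the highest of them in difference (0.85 ± 0.36) and the NADPH-producing Me1 the lowest (-0.70 ± 0.46). The 24 transcription factors and cofactors that work with CAR and PXR had a median of -0.06 and 0 called. Without overlap, 2 were higher and 2 lower (8.33% each).

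Hamp, which encodes hepcidin, the liver hormone that blocks iron export from cells, had the smallest p of the genes on the higher side whose groups did not overlap. It read 11.88, 11.31 and 11.79 in wild type and 13.76, 13.31 and 12.65 in hCAR/hPXR arrays. No arrays overlapped, and the difference was 1.58 ± 0.31, or 2.98 times higher, but it did not pass the test over all genes (unadjusted p = 4.29e-05, adjusted p = 0.137). Without hCAR/hPXR replicate 3, the lowest of its group, the Hamp difference was 1.87 and was called (adjusted p = 0.0332). Over all fits with 1 array left out the difference ran from 1.31 to 1.87, and none of the others called Hamp. A second probe set gave 1.67. The Hamp promoter (chr7:30943980-30944279, minus strand, RefSeq, GRCm38.p6) is shown because BMP signalling is a main driver of the gene, and capitals mark GGCGCC, a motif that BMP-activated SMADs bind, at -109 from the start.
Hamp: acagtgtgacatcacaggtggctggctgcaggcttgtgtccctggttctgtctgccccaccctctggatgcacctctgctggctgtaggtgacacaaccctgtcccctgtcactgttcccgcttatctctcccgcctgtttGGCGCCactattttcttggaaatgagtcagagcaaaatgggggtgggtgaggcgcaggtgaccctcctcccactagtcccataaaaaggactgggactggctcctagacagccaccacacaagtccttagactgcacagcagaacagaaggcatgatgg
This motif occurred in 12% of 27025 promoters and in 5 of 15 promoters of the iron and BMP list.

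Atoh8 and Id3, other genes that BMP signalling raises, were also above the wild type range. Atoh8 read 6.68, 6.79 and 6.81 in wild type and 8.07, 7.55 and 7.38 in hCAR/hPXR arrays (0.91 ± 0.31), and Id3 read 8.64, 8.47 and 9.32 against 9.74, 9.56 and 9.66 (0.84 ± 0.31). Neither gene was called. Id2 overlapped (0.63 ± 0.32), as did Id1 (0.78 ± 0.60), singled out after its values were seen, whose hCAR/hPXR arrays ran from 7.61 to 9.62. Of the 21 iron and BMP genes tested, 3 were higher and 0 lower without overlap (14.3% higher, against 4.37% of all genes), with a median of 0.08.

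Hepcidin was also high in the knockouts. CARko/PXRko arrays read 13.54, 13.59 and 13.63 and PXRko arrays 13.11, 13.31 and 12.75, so that all 9 arrays lacking a mouse receptor lay above the 3 wild type arrays. These comparisons share the wild type arrays and are not independent. Directly against hCAR/hPXR, CARko/PXRko differed by -0.35 ± 0.31 and PXRko by 0.18 ± 0.31 (both taken as hCAR/hPXR minus the knockout). Under DCB the hCAR/hPXR minus wild type difference was 0.71 ± 0.31 and under CPA 0.54 ± 0.31, where wild type means were 12.42 and 12.98 against 11.66 under corn oil.

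Pla2g12a, a secreted phospholipase, was like Hamp lowest in wild type livers under corn oil, but its PXRko arrays all lay above the hCAR/hPXR arrays. It read 7.16, 7.20 and 8.01 in wild type and 8.91, 8.70 and 8.63 in hCAR/hPXR arrays (1.29 ± 0.27, adjusted p = 0.158). Wild type replicate 3 was the highest of its group, and without it the Pla2g12a difference was 1.57 and was called (adjusted p = 0.0275). Over all fits with 1 array left out the difference ran from 1.14 to 1.57, and none of the others called Pla2g12a. CARko/PXRko arrays ran from 8.77 to 9.18 and PXRko arrays from 8.97 to 9.05. Under DCB the difference was 0.90 ± 0.27 and under CPA 0.46 ± 0.27, neither called. For Atoh8, CARko/PXRko arrays read 7.11, 6.95 and 7.09, above all wild type and below all hCAR/hPXR arrays, and PXRko arrays read 7.17, 6.81 and 6.91. For Id3, CARko/PXRko arrays read 9.92, 9.75 and 9.38, all above wild type, and PXRko arrays read 9.39, 9.07 and 9.37.

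**Figure D4:**
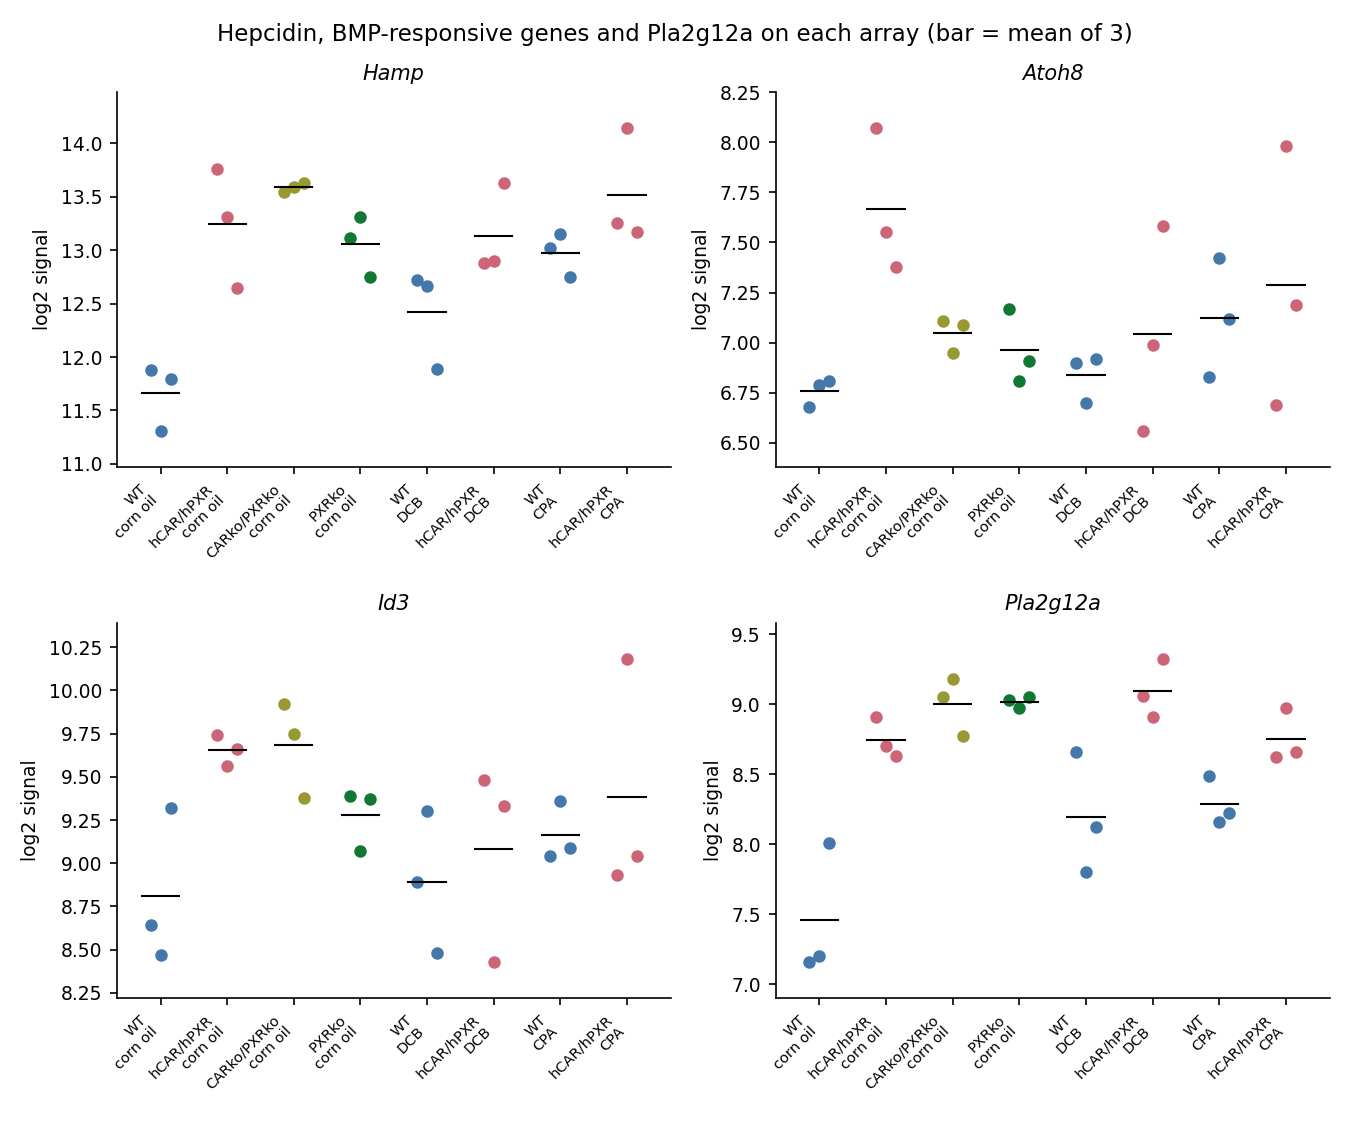
Log2 signal of Hamp, Atoh8, Id3 and Pla2g12a on each array, with 3 arrays per group as points and their mean as a bar. For Hamp and Pla2g12a the wild type corn oil arrays lie below the hCAR/hPXR, CARko/PXRko and PXRko arrays, from 11.31 to 11.88 and from 7.16 to 8.01, and for Atoh8 the arrays of both knockouts, from 6.81 to 7.17, lie below the hCAR/hPXR arrays. For Id3 the CARko/PXRko arrays, from 9.38 to 9.92, also lie above wild type.

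Of 17 fatty acid synthesis genes, which build fat from sugar, 0 were called, 16 had a lower mean in hCAR/hPXR livers, 3 were lower without overlap (17.6%, against 4.83% of all genes), and the median was -0.51. Pklr, the pyruvate kinase of glycolysis in liver, read 10.39, 10.36 and 9.61 in wild type and 8.56, 9.18 and 8.88 in hCAR/hPXR arrays (-1.25 ± 0.59). Thrsp, a lipogenic factor raised by thyroid hormone and glucose, read 13.93, 13.72 and 13.47 against 12.34, 12.53 and 12.37 (-1.30 ± 0.97). In the fit to the 6 arrays alone Thrsp was called (adjusted p = 0.037), 1 of 4 genes in that fit (0.0313%), and it was called again with the replicate number as a block (adjusted p = 0.0393). Within wild type, replicate 3 was the lowest for Pklr and for Acacb, the carboxylase that restrains fat burning, at 9.76, 9.58 and 8.51. Leaving out 1 array at a time moved the median between -0.77 and -0.29. The list had a median of -0.24 under DCB and of 0.76 under CPA, where 17 of 17 means were higher in hCAR/hPXR livers.

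Cholesterol genes were likewise lower by mean in 17 of 17 cases, with a median of -0.33. Of these, 4 were lower without overlap (23.5%, against 4.83% of all genes). The spread was large beside the differences. Fdps, an early enzyme of the sterol pathway, read 10.70, 10.68 and 10.82 in wild type and 10.45, 9.57 and 10.10 in hCAR/hPXR arrays (-0.69 ± 0.84), and Dhcr7, which makes cholesterol in its last step, stood at -0.65 ± 0.60. Leaving out 1 array at a time gave medians between -0.51 and -0.23. Under DCB the median was 0.27 and under CPA -0.09.

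PPAR alpha targets, which burn fat, had 18 of 20 means higher and a median of 0.26, and 0 without overlap. Of the wild type arrays, 1 stood apart in this list. Cyp4a14, a fatty acid hydroxylase, read 7.08, 7.03 and 12.53 in wild type and 12.48, 10.55 and 12.21 in hCAR/hPXR arrays, so that replicate 3 of wild type reached the hCAR/hPXR level (2.87 ± 1.24). Acot1, a thioesterase, showed the same array apart, with 7.65, 7.20 and 9.37 against 8.99, 9.06 and 9.83 (1.22 ± 0.70). The median ran from 0.10 to 0.35 over the fits with 1 array left out.

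Among 15 genes of glucose production and use, 1 was higher and 3 lower without overlap (6.67% and 20%, against 4.37% and 4.83% of all genes). Their median was -0.07. Igfbp1, which binds IGF1 and falls with insulin, was the one on the higher side, at 10.56, 10.54 and 9.69 in wild type and 11.89, 11.74 and 10.74 in hCAR/hPXR arrays (1.19 ± 0.87). With the replicate number as a block and the 6 arrays alone, Igfbp1 was called (adjusted p = 0.0285). Clock genes had a median of -0.38, with 13 of 16 means lower and 3 lower without overlap (18.8%). Per1, a clock repressor, read 8.68, 8.54 and 8.07 against 7.74, 7.97 and 6.92 (-0.89 ± 0.42), while Clock itself stood 0.54 ± 0.19 higher with overlapping arrays. The sources used here do not give the hour of sacrifice.

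Acute phase genes, which the liver raises in inflammation, had 6 of 23 lower and 1 higher without overlap (26.1% and 4.35%, against 4.83% and 4.37% of all genes), and a median of -0.16. Saa2, an apolipoprotein of the acute phase, read 9.52, 9.61 and 10.50 in wild type and 7.99, 8.29 and 8.78 in hCAR/hPXR arrays (-1.52 ± 1.06, adjusted p = 1). Its close relative Saa1, named after its values were seen, read 11.68, 11.83 and 12.52 against 10.05, 10.54 and 11.04 (-1.46 ± 1.10). Array probes may not separate the pair. Both shifts were called with the replicate number as a block and the 6 arrays alone (adjusted p = 0.0113 for each), a fit that called 7 genes (0.0547%). Replicate 3 was the highest array of its genotype for both genes, in wild type and in hCAR/hPXR livers. Under DCB, Saa2 stood at -2.40, and the list's median was -0.34.

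Of 18 ER stress and ATF4 genes, 16 means were higher, 4 without overlap (22.2%, against 4.37% of all genes), and the median was 0.28. Dnajb9, a chaperone of the ER, read 10.91, 10.59 and 11.08 in wild type and 11.12, 11.87 and 11.67 in hCAR/hPXR arrays (0.69 ± 0.28), and Ddit3, which encodes CHOP, was 0.49 ± 0.24 higher. Of 13 heat shock chaperones, 4 were higher without overlap (30.8%), with a median of 0.22. Hspa1b, an inducible HSP70, read 9.76, 9.99 and 9.96 against 10.48, 12.03 and 11.12 (1.30 ± 0.47), with replicate 2 the highest for it and for Dnajb9. None of these genes was called. The ER stress list had a median of -0.12 under DCB and 0.10 under CPA.

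Of 21 interferon-stimulated genes, 7 were higher and 0 lower without overlap (33.3% higher, against 4.37% of all genes), with a median of 0.20 and 0 called. Ifi47, a GTPase induced by interferon gamma, read 9.76, 9.60 and 9.21 in wild type and 10.49, 10.20 and 10.23 in hCAR/hPXR arrays (0.78 ± 0.34). Gbp2, of the same response, read 6.10, 6.07 and 5.74 against 7.70, 6.94 and 6.27 (1.00 ± 0.46). The class II antigen presentation genes H2-Ab1 (8.93, 8.99 and 8.47 against 10.35, 10.04 and 9.14) and H2-Aa (10.39, 10.58 and 9.95 against 11.64, 11.32 and 10.67) also did not overlap on the probe sets used, with differences of 1.05 ± 0.51 and 0.90 ± 0.47. The other 3 probe sets of H2-Aa overlapped, as did H2-Eb1 (1.03 ± 0.48) and Cd74 (0.74 ± 0.32) of the same pathway, both named after their values were seen. In each genotype replicate 3 was the lowest for Gbp2 and for both H2 genes. The interferon list had a median of -0.10 under DCB and of -0.34 under CPA, where 17 of 21 means were lower in hCAR/hPXR livers.

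Kupffer cell and macrophage markers were higher by mean in 8 of 8 cases, with a median of 0.34 and 0 called. Of the 8, 4 were higher without overlap (50%, against 4.37% of all genes). Adgre1, the classical surface marker of mouse macrophages, read 8.07, 8.47 and 8.33 in wild type and 9.03, 8.91 and 8.84 in hCAR/hPXR arrays (0.63 ± 0.20). The summed linear signal of the 8 markers ran from 6390 to 8030 in wild type and from 8160 to 9890 in hCAR/hPXR arrays, and 0 of the 8 lay under the array median on all 6 arrays. The defining markers Clec4f and Vsig4, singled out after their values were seen, differed by 0.12 ± 0.21 and 0.14 ± 0.25. Of 5 lymphocyte and antigen-presenting cell markers tested, 2 were higher without overlap (40%), with a median of 0.90. The summed signal of the list ran from 1950 to 2930 in wild type and from 3090 to 6280 in hCAR/hPXR arrays. The T cell marker Cd3e, also singled out afterwards, differed by -0.02 ± 0.15. Every other tested member belongs to the class II pathway and is given above with the interferon genes (Cd74, H2-Eb1, H2-Ab1, H2-Aa). The median and summed signal of this list therefore largely restate those genes and are not a separate result for lymphocytes. In whole liver, more cells of a type and more RNA per cell cannot be told apart, and the part of these cells in the interferon and H2 values was not tested. Under DCB 8 of 8 Kupffer markers had a lower mean in hCAR/hPXR livers (median -0.23), and under CPA 4 of 8. Lymphocyte and antigen-presenting cell markers had a lower mean in 5 of 5 cases under DCB (median -0.27) and under CPA (median -0.59).

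Stellate cell markers had a median of 0.05 and sinusoidal endothelial markers of 0.13, each with 0 of 6 outside the wild type range. Lyve1, an endothelial receptor, spread over 9.38, 8.16 and 6.45 in hCAR/hPXR arrays and 6.96, 7.54 and 6.23 in wild type, a difference of 1.09 ± 0.63 with overlapping arrays. Neutrophil markers had a median of -0.51 over 3 genes and red blood cell markers of -0.38 over 2. Muscle markers had a median of -0.03, both fat markers measured lay under the array median on all 6 arrays, and the pancreatic list had a median of 0.00 over 3 genes.

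In the remaining lists medians were 0.02 over 21 growth hormone and sex-dependent genes, 0.05 over 16 glucocorticoid-responsive genes, 0.17 over 19 immediate early genes, 0.16 over 20 cell cycle genes, -0.07 over 15 pericentral and 0.01 over 14 periportal hepatocyte genes, and -0.15 over 9 thyroid and energy genes. Nr1i3, a member of the pericentral list, was the single called gene in them. Of 16 glucocorticoid-responsive genes, 2 were higher and 3 lower without overlap (12.5% and 18.8%, against 4.37% and 4.83% of all genes). Of 9 thyroid and energy genes, 0 were higher and 2 lower (22.2%). Apart from the thyroid list, each of these medians changed sign when 1 array was left out. The ranges were -0.07 to 0.08 for the growth hormone list, -0.07 to 0.14 for the glucocorticoid list, -0.02 to 0.25 for immediate early genes, -0.04 to 0.25 for cell cycle genes, -0.15 to 0.05 for pericentral genes and -0.11 to 0.07 for periportal genes.

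**Figure D5:**
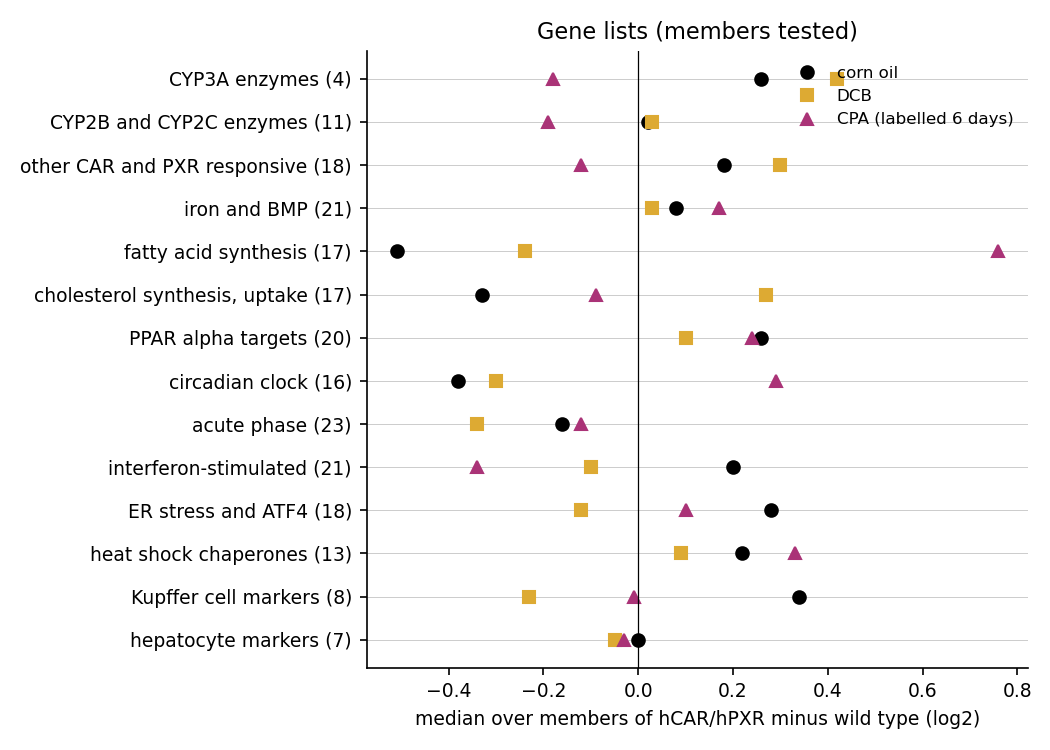
Median over the members of each of 14 lists of the hCAR/hPXR minus wild type difference in log2 units, under corn oil (circles), DCB (squares) and CPA (triangles), with the number of members tested in brackets. Among the 14 lists drawn, the corn oil medians run from -0.51 for fatty acid synthesis to 0.34 for Kupffer cell markers, and for fatty acid synthesis the CPA median is 0.76.

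Outside the lists, the genes with the smallest p included several with small, tight differences. Gcdh, a mitochondrial enzyme of lysine breakdown, read 11.84, 11.78 and 12 in wild type and 12.62, 12.50 and 12.46 in hCAR/hPXR arrays (0.65 ± 0.15, unadjusted p = 0.000247, adjusted p = 0.527). The difference was 0.04 ± 0.15 under DCB and -0.06 ± 0.15 under CPA, and CARko/PXRko and PXRko arrays, from 11.50 to 12.08, lay below all hCAR/hPXR arrays. Depp1, a FOXO target, read 9.95, 10.09 and 9.89 against 11.49, 11.18 and 10.52 (1.09 ± 0.32). Igfbp2, which binds insulin-like growth factors, read 11.42, 12.12 and 12.05 against 13.06, 12.75 and 13.19 (1.14 ± 0.36). CARko/PXRko arrays for Igfbp2 ran from 13.00 to 13.19 and PXRko arrays from 13.08 to 13.35. Angptl1 (0.43 ± 0.12) and Xirp1 (0.41 ± 0.13) completed the higher side. Other, dimmer probe sets of Angptl1 overlapped, with differences of -0.12 and -0.10. Xirp1 was dim, at 4.86, 4.98 and 4.90 in wild type and 5.32, 5.21 and 5.42 in hCAR/hPXR arrays.

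On the lower side, the differences after the 3 called genes were small. Nmnat3, a mitochondrial enzyme of NAD synthesis, read 7.78, 7.62 and 7.51 in wild type and 7.17, 6.63 and 6.85 in hCAR/hPXR arrays (-0.75 ± 0.25). Tle4, a transcriptional corepressor, read 8.44, 8.25 and 8.30 against 7.69, 8.10 and 7.93 (-0.43 ± 0.14). Narf read 9.03, 9.03 and 9.24 against 8.70, 8.75 and 8.76 (-0.37 ± 0.13), and it stood at -0.57 ± 0.13 under DCB and -0.32 ± 0.13 under CPA without being called. Prxl2a, a redox protein, stood at -0.51 ± 0.19. Ifna9, Ccdc14, 1700113H08Rik, Slx1b and Iqsec2 were dim, with no array above 6.74, and differed by -0.57 to -0.35. Of the 24 genes with the smallest p, 17 (70.8%) differed in the same direction under DCB and 13 (54.2%) under CPA. The shares of all genes tested were 53.1% and 51.5%. Without overlap as well, 9 (37.5%) and 6 (25%) of the 24 kept their direction, against 6.51% and 9.82% of all genes. The 24 include the 3 called genes, which were called again under both compounds. Over all genes in either direction, 4.36% were higher and 6.53% lower without overlap under DCB, and 8.35% and 10.6% under CPA.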

How the data were processed

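Liver RNA was labelled with the 3'IVT Express kit and hybridised to Affymetrix mouse arrays, per the labels' protocols. The authors deposited log2 values, 1 per probe set, made by RMA, per the submitters' processing notes. The RMA settings were not stated there. RMA normalizes arrays to a common distribution, so a shift of the whole transcriptome cannot be seen, and the number of arrays limits the precision.

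Of 45037 probe sets, 34945 were annotated to 1 gene, covering 18193 genes, 932 to several and 9160 to none. For each gene the single-gene probe set with the highest mean over the 30 arrays was used, and 12795 genes whose probe set exceeded the array median on at least 3 arrays were tested. The probe sets without a single gene were modelled separately. Symbols and gene order came from a RefSeq table, in which the identifiers of 34741 probe sets were found.

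The model, with 10 group means over the 30 arrays, was fitted with limma 3.58.1 in R 4.3.3 (lmFit, eBayes, two-sided, 20 residual degrees of freedom, prior 3.62). P-values were adjusted by Benjamini-Hochberg over all genes tested, and genes were called at an adjusted p under 0.05. Errors after a difference are standard errors. The method was tested on simulated data. Replicate numbers are shared between genotypes. Deviations of same-numbered arrays from their group means correlated at 0.13, 0.11 and 0.45, so the numbers were treated as pairs in an alternative fit, although hCAR/hPXR replicate 2 correlated more with wild type replicate 1 (0.32). For CPA the labels of both genotypes say 6 days, whereas the protocol describes 3 days.

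Named genes were Nr1i3, Nr1i2, Cyp2b10, Cyp3a11, Tmem223, Tomm40l, Hamp and Pla2g12a, all called genes, the 12 higher and 12 lower genes with the smallest p among those whose groups did not overlap, up to 4 members of each gene list by smallest p, and non-overlapping neighbours of the called genes. Genes outside this rule are Alb, the 8 genes whose genotype difference changed under CPA where the rule does not already name them, and those marked as singled out. The comparison, the named genes and the lists were chosen with earlier results of these data known. Alternatives covered the filter, normalization, choice of probe set, moderation, array weights, replicate block, the arrays in the fit, a 1.5-fold threshold and each array left out in turn. The arrays with muscle transcripts left out, and the block with the 6 arrays alone, were chosen after seeing the data.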

Additional observations from a re-analysis of the deposited data

Results flagged for a closer look

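The difference between hCAR/hPXR and wild type livers itself changed between corn oil and CPA for 8 genes, each by limma's test of the change at an adjusted p under 0.05. Of these 8 calls, 7 were kept with the replicate number as a block, 7 without the 4 arrays with muscle transcripts, and 6 with only wild type and hCAR/hPXR arrays. Ddit4 lost its call in each of these fits (adjusted p = 0.0633, 0.112 and 0.215), and Hsd17b6 in the last (adjusted p = 0.0551). In CPA arrays the labelled duration is 6 days in both genotypes and in corn oil arrays 3 days, so the compound and the labelled duration cannot be told apart. Cyp2c55, a CYP2C enzyme, went from 1.02 to -3.44, a change of -4.46 (adjusted p = 0.00872). Hsd17b6, a steroid dehydrogenase, went from 1.20 to -3.23, a change of -4.43 (adjusted p = 0.0468). Its wild type corn oil arrays read 9.06, 10.68 and 12.17, the corn oil difference ran from 0.41 to 1.96 with 1 array left out, and under DCB it was -2.34. For Igfbp2 the difference went from 1.14 to -1.66, a change of -2.80 (adjusted p = 0.0255). Tcim stood at -0.77 under corn oil and at 2.47 under CPA, a change of 3.25 (adjusted p = 0.0255). The other 4 genes differed little at rest. Of these, Nebl (4.31 to 5.01) and Slc8a1 (4.41 to 4.75) lay under the array medians, 5.39 to 5.42, on all 6 corn oil arrays compared. Their resting values were therefore near the floor, and both passed the filter only through arrays of other groups. Nebl, a protein of the actin cytoskeleton, went from 0.05 to -3.01 (change -3.06, adjusted p = 8.47e-06), Gin1 from -0.04 to 1.83 (change 1.87, adjusted p = 0.00872), Slc8a1, a sodium and calcium exchanger, from -0.15 to 1.5 (change 1.65, adjusted p = 0.00872) and Ddit4, an inhibitor of mTOR signalling, from 0.03 to 1.85 (change 1.82, adjusted p = 0.0488).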

How the results depend on the processing

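Nr1i3, Nr1i2 and Tmem223 were called under corn oil in all 20 alternative fits, the 1.5-fold threshold among them. The count was 8 with array weights, which added Gcdh, Hamp, Pla2g12a and Tomm40l as higher and Nmnat3 as lower. The count was 4 with only the 6 arrays compared and between 3 and 4 with 1 array left out at a time. The replicate block gave 3 genes, and the replicate block with only the 6 arrays compared gave 7. The replicate block gave 5 genes under DCB, 33 under CPA and 0 and 8 for the changes from corn oil to DCB and to CPA, and it kept 30 of the 35 CPA calls and 7 of the 8 calls of a change. It changed no call among the genes named under corn oil when all 30 arrays were kept.

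The DCB comparison called 12 genes with only wild type and hCAR/hPXR arrays, of which 4 were among the 5 called with all arrays, and 12 without the 4 arrays with muscle transcripts. The comparison with CARko/PXRko called 7 genes with only corn oil arrays and 4 without the muscle arrays. The mean of both probe sets turned Tomm40l to -0.10. Differences near 0 changed sign when an array was left out, running from -0.01 to 0.02 for Alb, -0.13 to 0.05 for Cd3e, -0.09 to 0.14 for Ddit4, -0.19 to 0.11 for Gin1 and -0.13 to 0.22 for Nebl, and array weights gave 0.08 for Gin1. The cause was not tested. Of 1662 values of named genes under these alternatives, 1638 kept their direction and their side of the threshold. A weight for each array was fitted gene by gene because the default method did not converge. With 3 arrays per group, most differences under 0.38 were not detectable even before adjustment over all genes. The adjusted test left larger ones uncalled too, such as 1.58 for Hamp.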

Other observations

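Probe sets annotated to several genes or to none were fitted apart. Of 3700 tested, 0 were called by limma between hCAR/hPXR and wild type livers under corn oil, and 64 had an unadjusted p under 0.05.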
